A study of Mus musculus with 9 samples.

Results

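The 10 genes described here mark amacrine cells or belong to the AP-2 family of transcription factors used to stain them, and they were followed across 9 RNA-seq libraries. The genes were chosen by name: Tfap2a, Tfap2b, Tfap2c, Pax6, Gad1, Gad2, Slc32a1, Slc6a9, Slc18a3 and Chat. Of these 10, 8 were among the 15228 genes with values, and Slc18a3 and Chat, the vesicular transporter and the synthesizing enzyme of acetylcholine, were not analysed here. The mice were wild type (WT, C57BL/6J), 6 to 8 weeks old at optic nerve surgery. Ctrl libraries came from normal retinas, and ONC libraries from retinas 3 days after optic nerve crush with a vehicle injection, named PBS in the labels. TPEN libraries came from retinas 3 days after the same crush with an intraocular injection of 100 μM TPEN, a membrane-permeable zinc chelator. Each group held 3 libraries of cells sorted as retinal ganglion cells (RGCs) by one antibody gate, CD90.2+ CD48neg CD15neg CD57neg, and no source used here says whether the libraries came from separate mice, so p-values measure only the spread between libraries, which may be technical.

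Amacrine cells are the inhibitory interneurons of the inner retina. Their somata lie at the inner edge of the inner nuclear layer and, as displaced cells, in the ganglion cell layer, and most release GABA or glycine onto bipolar cells, RGCs and one another. Pax6 is needed for the retinal progenitors that give rise to them, the AP-2 factors act as their differentiation begins and stay on in the mature cells, and the GABA-making enzymes and amino acid transporters mark what they release. None of these genes is taken as exclusive to amacrine cells. For example, Pax6 is also made in RGCs and horizontal cells, Tfap2a and Tfap2b in horizontal cells and Slc6a9 in Müller glia.

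The 3 AP-2 genes are paralogs, so their coding sequences were compared first, to see how far reads could be shared between them. Over aligned coding bases (GENCODE M21, GRCm38), Tfap2a was 70.8% identical to Tfap2b and 66.5% to Tfap2c, and Tfap2b was 64.9% identical to Tfap2c. The longest exact run was 29 bases between Tfap2a and Tfap2b, 17 between Tfap2a and Tfap2c and 11 between Tfap2b and Tfap2c. Between Gad1 and Gad2 identity was 66.2% and the longest exact run 17 bases. The 60 coding bases centred on the run that Tfap2a and Tfap2c share are shown for all 3 genes, each joined from exons 5 and 6 with the intron left out, with capitals at the 18 positions where the 3 genes are not all alike. They lie at chr13:40719294-40721288 (minus strand) for Tfap2a, chr1:19228541-19231052 (plus strand) for Tfap2b and chr2:172554140-172556104 (plus strand) for Tfap2c.
Tfap2a: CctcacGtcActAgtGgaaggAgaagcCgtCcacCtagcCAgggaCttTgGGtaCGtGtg
Tfap2b: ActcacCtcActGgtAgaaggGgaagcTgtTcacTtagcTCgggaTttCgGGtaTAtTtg
Tfap2c: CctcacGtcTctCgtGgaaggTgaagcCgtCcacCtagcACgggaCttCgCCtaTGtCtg

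Promoter windows of 300 bases, from 250 before to 50 after a start site (RefSeq, GRCm38.p6), were searched for the AP-2 consensus GCCNNNGGC, which reads the same on both strands. There were 13 windows for 9 of the genes, Tfap2c not among them. The consensus was present in the windows of Gad2, Pax6 and Slc18a3, and it was present in 16.6% of the 32851 windows of all genes. Gad2 (chr2:22622077-22622376, plus strand) had matches 242 and 121 bases before its start site, and the upstream of 2 Pax6 windows (chr2:105668646-105668945, plus strand) had 1 match 221 bases before. The Slc32a1 window (chr2:158610508-158610807, plus strand), shown because Slc32a1 was called higher in TPEN, did not hold these letters. Capitals mark the consensus, and a match is a description of letters and not a site.
Gad2: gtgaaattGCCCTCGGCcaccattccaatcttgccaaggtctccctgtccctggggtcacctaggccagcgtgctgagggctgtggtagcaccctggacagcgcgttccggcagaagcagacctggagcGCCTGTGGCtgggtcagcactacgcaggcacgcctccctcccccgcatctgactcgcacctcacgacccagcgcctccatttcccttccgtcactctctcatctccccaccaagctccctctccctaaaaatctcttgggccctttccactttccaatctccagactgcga
Pax6: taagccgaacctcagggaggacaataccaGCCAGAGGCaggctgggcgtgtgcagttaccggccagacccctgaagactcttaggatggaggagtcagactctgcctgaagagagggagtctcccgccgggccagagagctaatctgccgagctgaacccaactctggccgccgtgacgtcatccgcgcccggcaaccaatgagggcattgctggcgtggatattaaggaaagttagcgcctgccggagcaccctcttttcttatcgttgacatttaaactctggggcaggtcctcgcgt
Slc32a1: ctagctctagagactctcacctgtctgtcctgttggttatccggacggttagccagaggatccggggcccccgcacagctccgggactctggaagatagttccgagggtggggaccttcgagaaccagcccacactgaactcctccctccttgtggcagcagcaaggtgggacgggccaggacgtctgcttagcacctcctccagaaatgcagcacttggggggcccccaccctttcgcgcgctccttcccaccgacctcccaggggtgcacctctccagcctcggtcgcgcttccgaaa

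Library totals, recovered from the values as the read number by which each library was scaled, were 20077226 to 23109754 reads in Ctrl. They were 22967138 to 22986065 in ONC and 19946993 to 22217283 in TPEN. Against the label RGC, 6 of 9 listed markers of these cells had means above 0.5 RPKM (reads per kilobase of exon, scaled by library size) and 3 below. The neurofilament genes Nefl, Nefm and Nefh were at 240.0, 51.5 and 26.1 RPKM, Sncg at 20.5, Thy1 at 5.74 and Tubb3 at 3.92. Rbpms, Slc17a6 and Pou4f1 were at 0.439, 0.38 and 0.332 RPKM, and Pou4f2, Pou4f3 and Isl2 were not analysed here. The rod transducin gene Gnat1 was at 10600 RPKM. Thy1, whose product is the CD90 antigen of the gate, was at 4.74 ± 0.208 RPKM (SD, n = 3) in Ctrl, 5.35 ± 0.161 in ONC and 7.12 ± 0.443 in TPEN. In such bulk samples, fewer cells of a type and less RNA per cell cannot be told apart.

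By mean RPKM over the 9 libraries, the 8 amacrine genes ranged from rank 2259 of 15228 to rank 14123. Slc6a9 (chr4:117834506-117875198, plus strand) was highest at 20.9 RPKM, followed by Pax6 (chr2:105668900-105697364, plus strand) at 6.97. Tfap2b (chr1:19208914-19238576, plus strand) was at 1.85, Tfap2c (chr2:172549593-172558622, plus strand) at 1.69 and Slc32a1 (chr2:158610767-158615748, plus strand) at 1.28 RPKM. Gad1 (chr2:70553072-70602014, plus strand), Tfap2a (chr13:40715675-40733823, minus strand) and Gad2 (chr2:22622205-22693874, plus strand) were at 0.444, 0.381 and 0.357 RPKM, below the mean of 0.5 RPKM required for the test. Neighbours in this order were often not separated within a group. In Ctrl the Tfap2a libraries overlapped those of Gad1 and Gad2, in ONC those of Tfap2c and Slc32a1 overlapped, and in TPEN those of Slc32a1 and Tfap2b overlapped, as did those of Tfap2a, Gad1 and Gad2. Tfap2c ranked below Tfap2b in every Ctrl and ONC library and above it in every TPEN library.

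**Figure D1:**
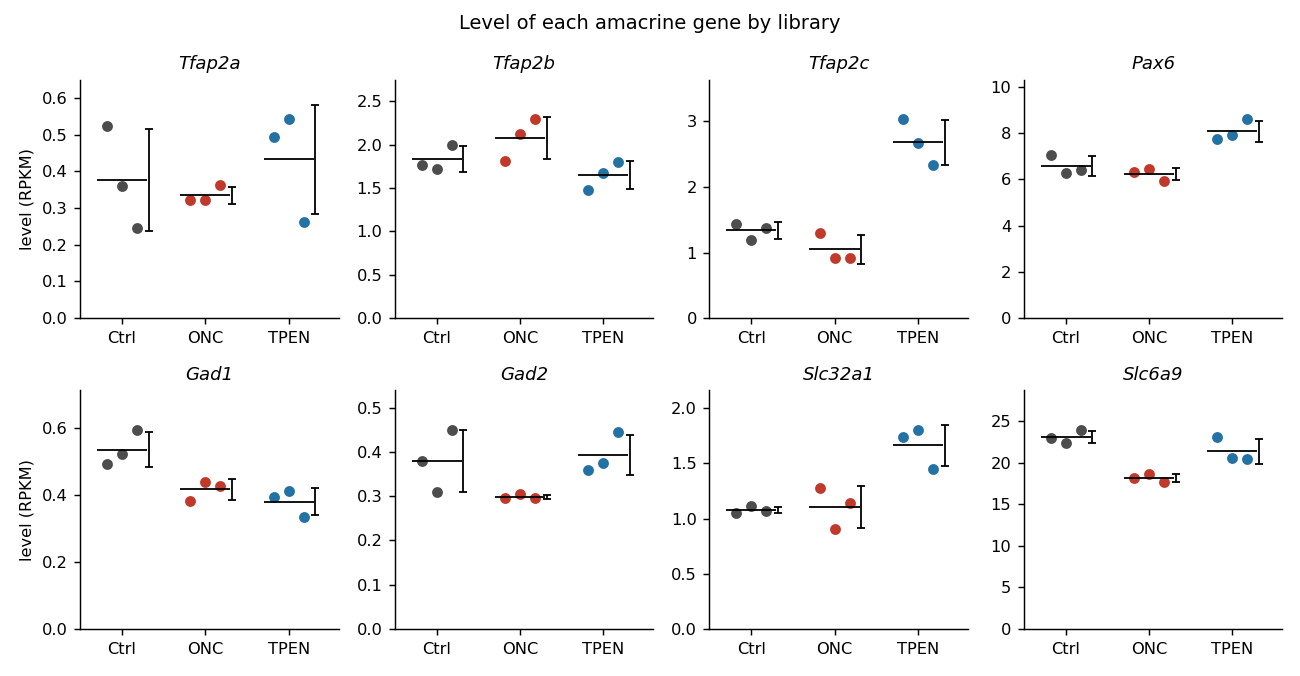
RPKM of the 8 amacrine genes with values, 1 panel per gene, with a vertical axis from 0. Points are the libraries of Ctrl, ONC and TPEN in replicate order, horizontal lines are group means and bars are 1 SD (n = 3). The 3 TPEN libraries of Tfap2c, at 2.34 to 3.03 RPKM, sit above all other libraries, which reach 1.44 RPKM.

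Crush with a vehicle injection was compared first with normal retina (ONC/Ctrl). The effects of the crush and of the injection cannot be told apart in this comparison. Slc6a9, the plasma membrane glycine transporter, was lower in ONC, and no tested amacrine gene was higher. Of the 5 tested, 1 was called lower and 0 higher at an adjusted p under 0.05 (limma, adjusted over all 13566 genes tested), where 6.97% of all tested genes were called lower and 11.7% higher. At an unadjusted p under 0.05, and with voom on the recovered reads, the counts were also 1 and 0. Over all tested genes voom called 1291 lower and 1923 higher. The share of all genes at an unadjusted p was not computed, here or for the comparisons below. With the 1.5-fold limit 0 were called, against 0.752% of all genes lower and 4.58% higher, and among the 5 Slc6a9 alone had no overlap between groups, as 15.8% of all tested genes did on the lower side and 20.7% on the higher.

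In TPEN/ONC, which asks what the chelator changed after crush, Tfap2c, Pax6, Slc32a1 and Slc6a9 were higher in TPEN and none of the 5 tested genes was called lower. Those 4 calls stood against 3.24% of all tested genes called higher and 4.14% called lower. With a fold change of at least 1.5 beside the adjusted p, 1 of the 5, Tfap2c, was called higher, against 0.818% of all genes (lower 1.21%). In each of the 4 genes every TPEN library was above every ONC library, as in 12.5% of all tested genes. Tfap2b lay the other way, with every TPEN library below every ONC library, as in 15.6% of all tested genes, and was the 1 gene below an unadjusted p of 0.05 on the lower side. Neither limma with adjustment nor voom, which called 948 of all tested genes lower, called Tfap2b.

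In TPEN/Ctrl, crush with the chelator against normal retina, Tfap2c, Pax6 and Slc32a1 were called higher and none lower. This was 3 of 5, against 8.36% of all tested genes higher and 5.01% lower. The count lower was 0 with limma, with voom and at an unadjusted p under 0.05, and voom called 947 of all tested genes lower. Only Tfap2c also passed 1.5-fold among the 5, against 3.45% of all genes higher and 0.457% lower. The same 3 genes had TPEN libraries above all Ctrl libraries, as in 18.1% of all tested genes, and none had them below, as in 13.3%. TPEN/ONC and TPEN/Ctrl share the TPEN libraries, and ONC/Ctrl and TPEN/ONC share the ONC libraries, so their values stand side by side and are not independent of each other. The split of calls over all genes depended on scaling: 62.7% of calls were higher in ONC/Ctrl, 43.9% in TPEN/ONC and 62.5% in TPEN/Ctrl, and with quantile normalization the shares were 46.9%, 53.9% and 52.0%.

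**Figure D2:**
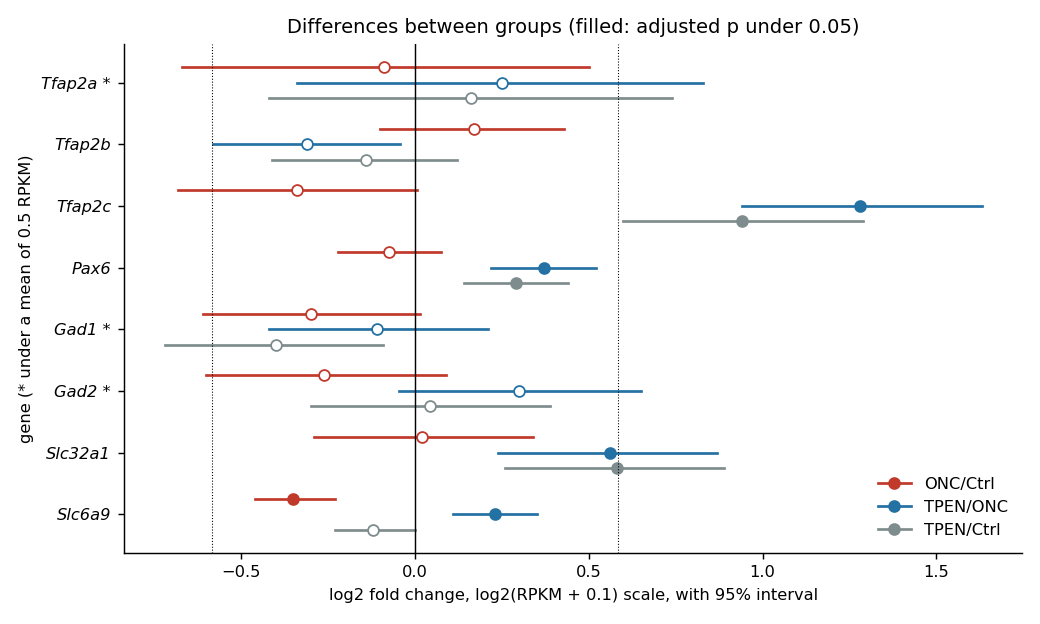
Log2 fold change on the log2(RPKM + 0.1) scale for 8 amacrine genes (vertical axis) in ONC/Ctrl, TPEN/ONC and TPEN/Ctrl, with 95% intervals. Filled points had an adjusted p under 0.05, dotted lines mark 1.5-fold, and asterisks mark the 3 genes below a mean of 0.5 RPKM, taken from the fit without the filter. Tfap2c in TPEN/ONC, at 1.28, is farthest from 0.

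Tfap2c encodes AP-2γ, an AP-2 factor found in amacrine cells of the mature retina. It was at 1.44, 1.2 and 1.38 RPKM in Ctrl, 1.30, 0.923 and 0.923 in ONC and 3.03, 2.67 and 2.34 in TPEN, from 78 to 223 reads per library. All 3 TPEN libraries were high and did not overlap either other group, whereas Ctrl and ONC overlapped through ONC replicate 1. The group means were 1.34 ± 0.126, 1.05 ± 0.218 and 2.68 ± 0.345 RPKM (SD, n = 3). In TPEN/ONC the log2 fold change was 1.28 (SE 0.15, 95% interval 0.94 to 1.63, adjusted p 0.00123), and in TPEN/Ctrl it was 0.94 (SE 0.15, 0.60 to 1.29, adjusted p 0.003). In ONC/Ctrl it was -0.34 (SE 0.15, -0.68 to 0.0056, adjusted p 0.165), which did not pass. Under the alternatives tried, the TPEN/ONC value ranged from 0.85 to 1.44 and its adjusted p did not exceed 0.00783.

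Tfap2b encodes AP-2β, which is present in amacrine and horizontal cells. Its libraries were at 1.77, 1.72 and 2.00 RPKM in Ctrl, 1.81, 2.12 and 2.29 in ONC and 1.48, 1.67 and 1.80 in TPEN. The ONC libraries were all above the TPEN libraries, the closest pair being 1.81 and 1.80 RPKM, and Ctrl overlapped both. The means were 1.83 ± 0.146, 2.07 ± 0.241 and 1.65 ± 0.157 RPKM. Log2 fold changes were 0.17 (adjusted p 0.378) in ONC/Ctrl, -0.31 (95% interval -0.58 to -0.044, adjusted p 0.157) in TPEN/ONC and -0.14 (adjusted p 0.495) in TPEN/Ctrl. The ratio of Tfap2c to Tfap2b RPKM within a library, a description with no test, was 0.692 to 0.814 in Ctrl, 0.404 to 0.718 in ONC and 1.31 to 2.04 in TPEN.

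Tfap2a encodes AP-2α, the factor whose antibody is the usual pan-amacrine nuclear stain. Levels were 0.523, 0.36 and 0.246 RPKM in Ctrl, 0.322, 0.322 and 0.362 in ONC and 0.494, 0.541 and 0.263 in TPEN, from 16 to 39 reads. The groups overlapped in all 3 comparisons, and the Ctrl and TPEN libraries spread over the whole range. Its intervals were wide, from -0.67 to 0.50 in ONC/Ctrl, from -0.34 to 0.83 in TPEN/ONC and from -0.42 to 0.74 in TPEN/Ctrl. Each interval reached past 1.5-fold in 1 direction. None of the 3 adjusted p values, 0.859, 0.639 and 0.752, passed.

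Pax6 encodes the paired box and homeobox factor of the eye field and of mature amacrine cells. It was at 7.05, 6.28 and 6.41 RPKM in Ctrl, 6.31, 6.46 and 5.95 in ONC and 7.75, 7.90 and 8.59 in TPEN, from 1505 to 2053 reads. The TPEN libraries lay above all Ctrl and ONC libraries, and Ctrl and ONC overlapped. The means of 6.58 ± 0.409, 6.24 ± 0.264 and 8.08 ± 0.446 RPKM gave a mean 29.5% higher in TPEN than in ONC and 22.8% higher than in Ctrl. The log2 fold change was 0.37 (SE 0.066, 95% interval 0.22 to 0.52, adjusted p 0.0105) in TPEN/ONC, 0.29 (SE 0.066, adjusted p 0.0174) in TPEN/Ctrl and -0.075 (SE 0.066, adjusted p 0.492) in ONC/Ctrl. The TPEN/Ctrl call was lost without Ctrl replicate 2, Ctrl replicate 3 or TPEN replicate 3 (adjusted p 0.0628, 0.0545 and 0.0654), and over all its alternatives the adjusted p ranged from 0.00011 to 0.0654.

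Gad1 and Gad2 encode the glutamate decarboxylases GAD67 and GAD65, which make GABA. Gad1 was at 0.491, 0.521 and 0.593 RPKM in Ctrl, 0.382, 0.439 and 0.427 in ONC and 0.393, 0.412 and 0.335 in TPEN. Every ONC and TPEN library was below every Ctrl library, at 51 to 92 reads each. Without the filter the log2 fold changes were -0.30 (SE 0.14, adjusted p 0.178) in ONC/Ctrl, -0.40 (SE 0.14, 95% interval -0.72 to -0.092, adjusted p 0.0893) in TPEN/Ctrl and -0.11 (adjusted p 0.717) in TPEN/ONC, none past the threshold. Quantile normalization gave -0.50 (adjusted p 0.0304) in ONC/Ctrl and -0.58 (adjusted p 0.0244) in TPEN/Ctrl, and over the alternatives the adjusted p ranged up to 0.372 and 0.229.

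Gad2 was at 0.38, 0.309 and 0.449 RPKM in Ctrl, 0.296, 0.304 and 0.296 in ONC and 0.358, 0.375 and 0.444 in TPEN, from 40 to 53 reads. The ONC libraries were below all Ctrl and all TPEN libraries, and Ctrl and TPEN overlapped. Its log2 fold changes were -0.26 (SE 0.15, adjusted p 0.301) in ONC/Ctrl, 0.30 (SE 0.15, adjusted p 0.293) in TPEN/ONC and 0.044 (adjusted p 0.89) in TPEN/Ctrl. With quantile normalization the ONC/Ctrl value was -0.53 (adjusted p 0.0384), and over its alternatives the adjusted p ranged up to 0.597. The ratio of Gad2 to Gad1 within a library was 0.593 to 0.774 in Ctrl, 0.692 to 0.776 in ONC and 0.91 to 1.33 in TPEN. None of Gad1, Gad2 and Tfap2a was called in the fit without the filter, or with voom. Of all 15228 genes that fit called 12.6% higher and 6.43% lower in ONC/Ctrl. For TPEN/ONC the shares were 3.15% and 4.52%, and for TPEN/Ctrl 8.92% and 4.59%. At an unadjusted p under 0.05, Gad1 alone passed, in TPEN/Ctrl (0.0164).

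Slc32a1 encodes VGAT, the transporter that loads both GABA and glycine into synaptic vesicles, and so belongs to both main amacrine classes. It was at 1.05, 1.11 and 1.07 RPKM in Ctrl, 1.28, 0.903 and 1.14 in ONC and 1.74, 1.80 and 1.45 in TPEN, from 58 to 112 reads. All TPEN libraries exceeded all others, and the ONC libraries spread around the narrow Ctrl range. The means were 1.08 ± 0.0318, 1.10 ± 0.188 and 1.66 ± 0.186 RPKM. Log2 fold changes were 0.56 (SE 0.14, 95% interval 0.24 to 0.87, adjusted p 0.0433) in TPEN/ONC and 0.58 (SE 0.14, 0.26 to 0.89, adjusted p 0.0247) in TPEN/Ctrl. In ONC/Ctrl the value was 0.02 (adjusted p 0.94). The TPEN/ONC call was lost on leaving out any single library other than ONC replicate 1 (log2 0.43 to 0.65, adjusted p 0.0529 to 0.128), and the TPEN/Ctrl call on leaving out any Ctrl library, TPEN replicate 1 or TPEN replicate 2 (adjusted p 0.0566 to 0.0838).

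Slc6a9 encodes GlyT1, which takes up glycine at glycinergic amacrine cells and in Müller glia. It was at 23.0, 22.4 and 23.9 RPKM in Ctrl, 18.2, 18.6 and 17.7 in ONC and 23.1, 20.6 and 20.4 in TPEN, from 2093 to 2661 reads. The ONC libraries were below all others, and TPEN overlapped Ctrl through TPEN replicate 1. The means were 23.1 ± 0.78, 18.2 ± 0.432 and 21.4 ± 1.5 RPKM, 21.5% lower in ONC than in Ctrl by the ratio of means. The log2 fold change was -0.35 (SE 0.052, 95% interval -0.46 to -0.23, adjusted p 0.00132) in ONC/Ctrl, 0.23 (SE 0.052, adjusted p 0.0277) in TPEN/ONC and -0.12 (SE 0.052, adjusted p 0.189) in TPEN/Ctrl. The TPEN/ONC call was lost without any ONC library or without TPEN replicate 1 (adjusted p 0.0629 to 0.0949), whereas the ONC/Ctrl adjusted p did not exceed 0.00704 under any alternative.

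The exons of both transporter genes overlap other genes of the table on the opposite strand, and whether the authors counted by strand is not given in the sources used here. Of the 5141 exon bases of Slc6a9, 30.2% lie within exons of Ccdc24, Gm17114 or B4galt2, with Ccdc24 alone covering 27.8%. Ccdc24 was at 62.3 ± 1.96 RPKM in Ctrl, 46.7 ± 0.885 in ONC and 52.9 ± 1.98 in TPEN, with log2 fold changes of -0.42 (adjusted p 4.1e-05) in ONC/Ctrl and 0.18 (adjusted p 0.0176) in TPEN/ONC. B4galt2, a galactosyltransferase gene that shares 46 exon bases with Slc6a9, was at 40.1 ± 1.45, 30.4 ± 0.208 and 34.2 ± 0.292 RPKM. Both ran in the same order of groups as Slc6a9, at higher levels. Gm17114, whose 511 exon bases all lie within exons of Slc6a9, was at 24.2 ± 1.99, 20.8 ± 4.02 and 22.3 ± 4.22 RPKM and was not called in either comparison (log2 -0.23, adjusted p 0.353 in ONC/Ctrl, and 0.10, adjusted p 0.766 in TPEN/ONC). The part of these 3 genes in the Slc6a9 result was not tested.

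For Slc32a1, which has 2 exons, 24.9% of the 2797 exon bases lie within the antisense gene Gm14205. Gm14205 was at 2.35, 2.99 and 2.43 RPKM in Ctrl, 3.30, 2.53 and 3.06 in ONC and 3.99, 4.75 and 4.07 in TPEN. Its TPEN libraries were above all others, as for Slc32a1. The log2 fold change was 0.52 (SE 0.13, adjusted p 0.0385) in TPEN/ONC and 0.70 (SE 0.13, adjusted p 0.00534) in TPEN/Ctrl, and reads of the pair cannot be told apart if strand was not used. Pax6 overlaps Pax6os1 only outside its exons, and no overlap with another listed gene was found for the 5 remaining genes.

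**Figure D3:**
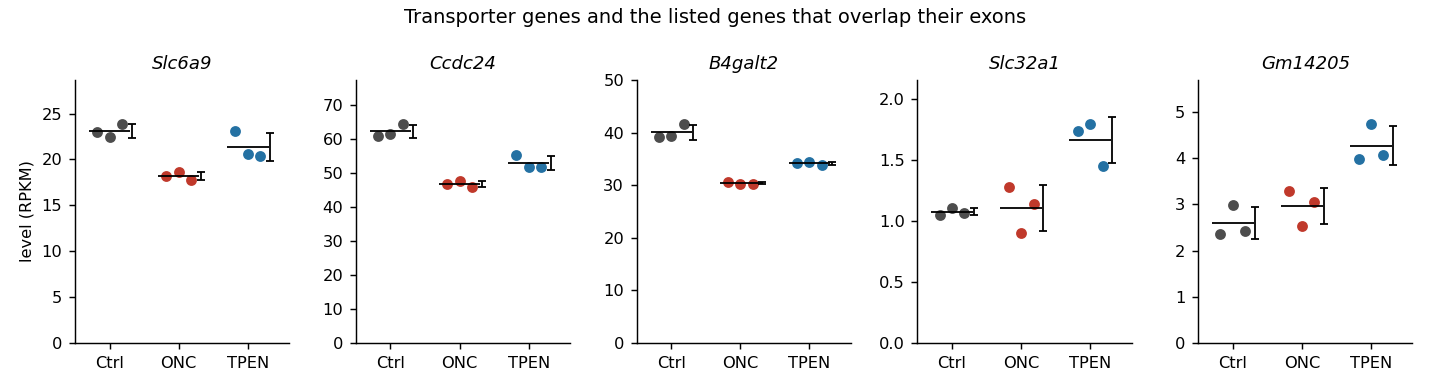
RPKM by library and group for Slc6a9, Ccdc24, B4galt2, Slc32a1 and Gm14205, with vertical axes from 0. Points are libraries, lines are means and bars are 1 SD (n = 3). Slc6a9, Ccdc24 and B4galt2 are each lowest in ONC, at means of 18.2, 46.7 and 30.4 RPKM, and Slc32a1 and Gm14205 are each highest in TPEN, at 1.66 and 4.27 RPKM.

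Summed over the 8 genes, the amacrine list was at 33.9 to 36.1 RPKM in Ctrl, 29.1 to 30.1 in ONC and 35.7 to 38.3 in TPEN, and Slc6a9 made up most of each sum. The cone list, led by Gnat2 at 43.9 RPKM, was at 131 to 137, 113 to 121 and 202 to 205 RPKM. In TPEN/ONC and in TPEN/Ctrl 7 of its 7 genes were called higher, against 3.24% and 8.36% of all tested genes. The rod list was at 19100 to 19900 RPKM in Ctrl, 16800 to 17000 in ONC and 18000 to 18100 in TPEN, the same order of groups as the Slc6a9 means. In ONC/Ctrl 6 of its 8 genes were called lower and 1 higher, against 6.97% and 11.7% of all tested genes. The RGC list was at 362 to 372 in Ctrl, 371 to 393 in ONC and 288 to 303 in TPEN. Nefl, at means of 258, 264 and 198 RPKM, made up most of the sum in each group. In TPEN/ONC 3 of its 6 tested genes were called lower, and 1, Thy1, was called higher (log2 0.40, adjusted p 0.00587). Of all tested genes, 4.14% were called lower and 3.24% higher.

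Of the remaining inner retinal neurons, the bipolar list, led by Otx2 at 34.2 RPKM and with Vsx1 at 0.373, was at 81.4 to 83.9, 74.4 to 75.8 and 78.0 to 81.4 RPKM. The horizontal cell list held 4 listed genes of 6, with Prox1 at 2.11, Calb1 at 0.488 and Onecut1 at 0.171 RPKM, and was at 4.11 to 5.0, 4.22 to 4.62 and 4.59 to 5.19 RPKM. Prox1 was called higher in TPEN/ONC (log2 0.60, SE 0.12, adjusted p 0.0139), from 1.66 ± 0.083 to 2.57 ± 0.276 RPKM, as were Tfap2c, Pax6, Slc32a1 and Slc6a9. Tfap2b, the other tested gene of this list, was not called. The list is not exclusive to horizontal cells, since Tfap2b and Calb1 are also on the amacrine lists, and the cell source of Prox1 was not tested.

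Among glia and other cells, the Müller glia list (led by Apoe at 206 RPKM) was at 581 to 597 RPKM in Ctrl, 659 to 671 in ONC and 529 to 540 in TPEN. Its genes were divided in ONC/Ctrl, with 3 of 8 called higher and 3 lower, against 11.7% and 6.97% of all tested genes. Apoe (172 to 268 RPKM), Vim (19.0 to 57.1) and Clu (30.6 to 47.0) were higher. Glul (173 to 116), Rlbp1 (125 to 111) and Aqp4 (9.6 to 7.66) were lower. The microglia and macrophage list, with Lyz2 at 8.12 and Ptprc at 0.442 RPKM, was at 4.58 to 5.54, 59.8 to 63.0 and 26.5 to 27.2. The astrocyte list (led by Gfap at 13.1 RPKM) was at 5.54 to 6.21, 27.2 to 28.3 and 17.3 to 20.0, and the endothelial and pericyte list, with Kdr at 12.4 and Pdgfrb at 0.28 RPKM, at 11.9 to 12.6, 14.0 and 15.0 to 16.0. The microglia, astrocyte, Müller glia, rod, cone, and endothelial and pericyte sums overlapped between no groups. Every TPEN library was above all others in the cone sum and the endothelial and pericyte sum, as for Tfap2c, Pax6 and Slc32a1. Kdr, at means of 10.7, 12.5 and 14.1 RPKM in Ctrl, ONC and TPEN, made up most of the endothelial and pericyte sum. Its other listed genes were divided, with Pecam1 at 0.546, 0.541 and 0.653, Rgs5 at 0.674, 0.725 and 0.533 and Pdgfrb at 0.381, 0.217 and 0.241 RPKM. The part of these lists and of Prox1 in the amacrine results was not tested.

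**Figure D4:**
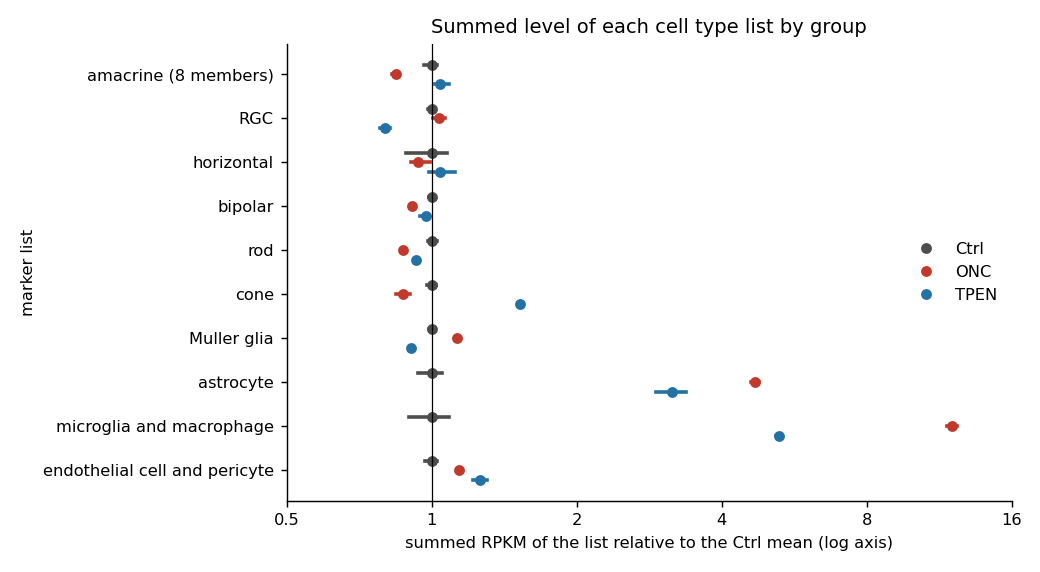
Summed RPKM of each cell type list relative to its Ctrl mean, on a log axis. Points are group means and bars run from the lowest to the highest of 3 libraries. The amacrine sum has means of 35.2 RPKM in Ctrl, 29.7 in ONC and 36.6 in TPEN, the cone sum is highest in TPEN (204), and the microglia and macrophage sum is highest in ONC (61.4, against 5.11 in Ctrl).

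Other amacrine genes were taken from 4 lists of 61 genes, of which 42 were listed and 35 tested. In TPEN/ONC, 4 of the 35 were called higher and 1 lower, with a median log2 fold change of 0.10 beside -0.011 over all genes tested. In TPEN/Ctrl, 7 were called higher and 1 lower (median 0.13, all genes 0.012), and in ONC/Ctrl 3 were called higher and 1 lower (median -0.015, all genes 0.017). Of all tested genes, 3.24% were called higher and 4.14% lower in TPEN/ONC, 8.36% and 5.01% in TPEN/Ctrl, and 11.7% and 6.97% in ONC/Ctrl. In ONC/Ctrl neither count of the 35 exceeded its share. The same shares stand beside the counts of each list below.

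Of 24 transcription factors of amacrine and inner retinal neurons, 15 were tested, and in TPEN/ONC 3 were called higher, 1 lower and 11 neither (median 0.15). Ebf3, of the COE family, was at 0.959 ± 0.0159 RPKM in Ctrl, 0.769 ± 0.0726 in ONC and 1.72 ± 0.14 in TPEN, a log2 fold change of 1.07 in TPEN/ONC (adjusted p 7.2e-04) and 0.78 in TPEN/Ctrl (adjusted p 0.00175). Nhlh2, a basic helix-loop-helix factor, was at 2.05 ± 0.0961, 1.83 ± 0.172 and 3.61 ± 0.477 RPKM, 0.94 in TPEN/ONC (adjusted p 0.00123). Neurod4, another of that class, rose by 0.50 in TPEN/ONC (adjusted p 0.0215) from 6.14 ± 1.04 to 8.62 ± 0.445 RPKM. That call was lost without ONC replicate 1, ONC replicate 2, TPEN replicate 1 or TPEN replicate 2 (adjusted p 0.0672 to 0.0786) and with the replicate block (0.056).

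Neurod1, which photoreceptors also make at high level, moved otherwise, from 352 ± 18.6 RPKM in Ctrl to 480 ± 21.1 in ONC (log2 0.45, adjusted p 2.3e-04) and 415 ± 23.0 in TPEN (-0.21 against ONC, adjusted p 0.0381). The TPEN/ONC call of Neurod1 was lost with quantile normalization (adjusted p 0.103), with the replicate block (0.0814) and on leaving out any single library other than Ctrl replicate 3 or TPEN replicate 2 (0.0502 to 0.122). Sox2 was at 6.01 ± 0.591, 7.21 ± 0.372 and 7.54 ± 0.691 RPKM and was called in TPEN/Ctrl alone (0.32, adjusted p 0.0422). The paralogs Tfap2d and Tfap2e were not analysed here.

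Of 15 genes that handle GABA, glycine, acetylcholine or monoamines, 8 were tested. Slc38a1, a glutamine and neutral amino acid transporter, was the 1 called in TPEN/ONC, from 2.98 ± 0.118 RPKM in ONC to 4.24 ± 0.158 in TPEN (log2 0.49, adjusted p 0.00595). In ONC/Ctrl 0 were called by limma or voom, and 0 had an unadjusted p under 0.05. Abat, the GABA transaminase, was at 4.26 ± 0.325, 4.48 ± 0.226 and 3.86 ± 0.252 RPKM and had an adjusted p of 0.159 in TPEN/ONC. Gphn, the gephyrin scaffold of inhibitory synapses, was at 5.21 ± 0.156, 4.88 ± 0.683 and 5.02 ± 0.756 RPKM, with an adjusted p of 0.898.

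Of 18 amacrine subtype markers, 9 were tested. In TPEN/ONC limma and voom called 0 (median -0.039), and at an unadjusted p under 0.05 there were 1 higher, Gjd2, and 1 lower, Calb2. In ONC/Ctrl, Calb2 (calretinin) rose by 0.20 (adjusted p 0.0123) from 21.5 ± 0.443 to 24.7 ± 1.23 RPKM, and Npy (neuropeptide Y) by 1.83 (adjusted p 0.00311) from 1.33 ± 0.687 to 4.72 ± 1.2 RPKM. Pvalb, the parvalbumin gene of AII amacrine cells and some RGCs, fell by 1.56 on the log2 scale (adjusted p 0.0159) from 1.16 ± 0.338 to 0.321 ± 0.0871 RPKM. It passed the filter on low values only through Ctrl, was not tested at a filter of 1 RPKM, and its call was lost without Ctrl replicate 2, Ctrl replicate 3, ONC replicate 1 or ONC replicate 3 (adjusted p 0.0518 to 0.0593). Its log2 value was -0.70 with a pseudocount of 1 RPKM. Gjd2, the connexin of AII gap junctions, was at 8.38 ± 0.47, 7.39 ± 0.543 and 8.26 ± 0.201 RPKM, and Dab1 at 2.94 ± 0.182, 3.33 ± 0.262 and 3.24 ± 0.132, neither past the threshold in any comparison.

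The AP-2 cofactor list had 3 tested genes of 4, and 0 were called in any comparison by limma or voom, or had an unadjusted p under 0.05. Cited2, a coactivator that binds AP-2 factors, was at 79.7 ± 5.41, 76.7 ± 1.79 and 77.9 ± 2.1 RPKM, with a log2 fold change of 0.021 in TPEN/ONC (adjusted p 0.847). Kctd1 and Kctd15, which bind AP-2 factors as repressors of their activity, had values of -0.0085 and 0.026 in TPEN/ONC (adjusted p 0.968 and 0.898).

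For each AP-2 gene, the 5 tested genes with the most similar pattern were found as those with the smallest root mean square difference of centred log2(RPKM + 0.1) over the 9 libraries. For Tfap2c these were Grik3, a kainate receptor subunit (0.159), Sparcl1 (0.175), Ebf3 (0.212), Ryr2 (0.218) and the cone gene Pde6h (0.224). Their group means rose from 0.574 RPKM in ONC to 1.46 in TPEN for Grik3 and from 11.5 to 23.3 for Sparcl1, with Ctrl at 0.702 and 14.0. For Tfap2b the nearest were Pole4 (0.059), Ass1 (0.066), Cacnb1 (0.071), Nme7 (0.075) and Npc2 (0.076), with adjusted p values of 0.0562 to 0.292 in TPEN/ONC. For Tfap2a the nearest were Cmc1 (0.135), Slc38a6 (0.16), Plscr1 (0.173), Lpcat3 (0.177) and Zcchc10 (0.18), with adjusted p values of 0.529 to 0.976. These genes were picked for likeness, so their values are descriptions.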

How the data were processed

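RNA of sorted cells was made into stranded, UMI-tagged libraries, and per the labels and methods the authors trimmed reads (Trimmomatic 0.36) and mapped them to GRCm38/mm10 with STAR. The deposited values are RPKM, which the authors normalized for exon length and library size. The counting program, its use of strand and the collapse of molecular identifiers are not given in the sources used here. The table's columns of log2 fold changes, p-values and FDR hold the authors' own comparisons and were not used. Every RPKM times exon length was a whole multiple of 1 step per library (100.0% of values, tolerance 0.01 reads), which gave reads and totals. A gene without a read allows up to 3 reads, or 0.13 to 0.15 RPM, for counting error only. Between 44 and 58 genes were at 0 in Ctrl, 0 to 1 in ONC and 8 to 11 in TPEN.

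The study's count model (edgeR) was not applied to RPKM. Groups were compared with limma 3.58.1 (R 4.3.3), with a variance trend, on log2(RPKM + 0.1), which understates changes of low genes. All 9 libraries entered the fit, and genes averaging under 0.5 RPKM were left out, leaving 13566. Two-sided p-values were adjusted over these genes (Benjamini-Hochberg). A call is an adjusted p under 0.05. Gad1, Gad2 and Tfap2a were below the filter and come from the fit without it (15228 genes), chosen after seeing the data. Alternatives were quantile normalization, median-of-ratios size factors, other filters, a pseudocount of 1, only the 6 libraries compared, the replicate block, each library left out, voom on whole reads and the 1.5-fold limit. Genes named beyond the 10 were those of the lists with an adjusted p under 0.05 in ONC/Ctrl or TPEN/ONC, the 3 highest of each list, the highest and the low genes of the cell type lists, and the 5 nearest patterns. Sox2 was among the 3 highest, and the overlapping genes and Thy1 were added after values were seen. The genes and lists were chosen with earlier results of these data known.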

Additional observations from a re-analysis of the deposited data

How the results depend on the processing

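Of 390 alternative values, 350 kept direction and side of the threshold, 26 kept direction but no longer passed, 4 newly passed and 10 changed sign. Most of the 390 belong to differences that were not called, and all 26 that no longer passed belong to called ones. With a 1.5-fold limit, amacrine genes called lower in ONC/Ctrl were 0, higher in TPEN/ONC 1 and higher in TPEN/Ctrl 1. With the 6 libraries compared, 2 were higher in TPEN/ONC, since Slc32a1 (adjusted p 0.0844) and Slc6a9 (0.052) did not pass. Leaving out 1 library gave 2 to 3 higher in TPEN/ONC (2 without ONC replicate 2, ONC replicate 3 or TPEN replicate 1), 1 to 3 higher in TPEN/Ctrl (1 without Ctrl replicate 2 or 3) and 0 to 1 lower in TPEN/Ctrl (Slc6a9 without TPEN replicate 1, log2 -0.17). Of the other amacrine lists, genes lower in ONC/Ctrl were 5 with quantile normalization, 2 with size factors, 2 with voom, 0 with a filter at 1 RPKM and 0 to 1 leaving out 1 library (0 without Ctrl replicate 2 or ONC replicate 3). Without Ctrl replicate 3 or ONC replicate 1 the 1 gene called was not Pvalb, whose adjusted p was 0.0548 and 0.0518. Those lower in TPEN/ONC were 0 with quantile normalization and 0 to 1 leaving out 1 library, 1 only without Ctrl replicate 3 or TPEN replicate 2, and those lower in TPEN/Ctrl were 2 with quantile normalization, 2 with voom and 0 with that filter. Signs changed in 4 differences that were not called. Tfap2a was at -0.06 in TPEN/Ctrl with quantile normalization, and leaving out 1 library gave -0.051 to 0.42 there and -0.30 to 0.13 in ONC/Ctrl. Gad2 in TPEN/Ctrl was at -0.17 with quantile normalization and -0.064 to 0.15 leaving out 1 library. Slc32a1 in ONC/Ctrl was at -0.10 with quantile normalization, -0.0027 with size factors and -0.081 to 0.15 leaving out 1 library. Slc32a1 in TPEN/Ctrl had an adjusted p of 0.0548 with quantile normalization. Over all genes, voom called 740 higher and 948 lower in TPEN/ONC, and leaving out 1 library gave 247 to 491 and 279 to 660. Quantile normalization called 1428 lower in ONC/Ctrl. The cause of these changes was not tested.

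No pairing by replicate number was seen in the values. Deviations of same-numbered libraries correlated at -0.06 to 0.03 (9 pairs) and others at -0.04 to 0.05 (18 pairs). These correlations cannot show whether same-numbered libraries were prepared together. With the replicate block, 2 amacrine genes were higher in TPEN/ONC, since Slc32a1 (0.0855) and Slc6a9 (0.0579) did not pass, Slc32a1 did not pass in TPEN/Ctrl (0.0514), and 0 list genes were lower in TPEN/ONC.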
